A study of Mus musculus with 6 samples.

Results

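The 34 genes described here mark the steps from neural stem cell to immature neuron. They were chosen by gene symbol, and all 34 were found among the 55421 genes of the deposited table of estimated counts. Hippocampi came from 3 male wild-type C57BL/6N mice that received substance P (SP, 10 µM in 100 µL) under the skin for 14 days and from 3 such mice that received the same volume of saline (vehicle). All mice were 8 to 10 weeks old when they were used, and each gave 1 library of whole hippocampus. No transcript in the table checks which libraries came from SP-injected mice, so every direction refers to the labels. If the labels of the groups were exchanged, the sign of every difference given here would turn, and no value in the table settles this. The libraries are called vehicle 1 to 3 and SP 1 to 3 by the replicate number in the labels, which the labels also call a batch.

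New granule neurons are made throughout life in the dentate gyrus. Radial glia-like stem cells are kept undifferentiated by Notch signaling, in which the ligand Dll1 on a neighboring cell activates the receptor Notch1 and so the repressors Hes1 and Hes5. Their daughters pass through an intermediate progenitor that carries Eomes and then become immature neurons with doublecortin (*Dcx*), a microtubule-binding protein that is the usual stain for adult neurogenesis. Most of these genes are not private to that lineage. Several stem cell genes are also active in astrocytes, and tubulins, stathmins and growth cone proteins are also made by mature neurons. In RNA from a whole tissue, fewer cells of a type and less RNA per cell cannot be told apart.

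The libraries held 22349964 to 27605935 counts. Expression is given as CPM, counts scaled to a common library size after TMM normalization. The difference between the labels is given as log2FC, the log2 fold change of SP against vehicle, with its standard error (SE). It was estimated and tested in edgeR (quasi-likelihood) for all 17069 genes that passed the filter on low counts, with the replicate number as a block, and the FDR is adjusted over all of them. Of the 34 members, 33 passed this filter, and the exception was *Tfap2c*. SP 1 was low in choroid plexus genes, with 125 CPM of *Ttr* where the other libraries had at least 2542 CPM, and held transcripts of cerebellar neurons, with 10.5 CPM of *Cbln3* where the others had at most 1.03 CPM. The vehicle libraries were not uniform either. Vehicle 2 had 62.5 CPM of *Zic1*, where the others had 24.9 to 38.9 CPM. With 3 mice a group, an exact permutation test of a single gene that ignores the replicate number can give no p under 0.1. Permuting only within replicate numbers leaves fewer arrangements, so the lowest possible p is higher.

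Of the 33 tested members, 0 passed the thresholds of FDR < 0.1 and |log2FC| > 0.3, which 0.0293% of all tested genes passed. An unadjusted p under 0.05 from edgeR was found for 10 members, or 30.3%, against 10.1% of all tested genes. DESeq2 with the block also called 0 members, and 38 of 28039 genes in all. With no filter on low counts, edgeR called 3 members (*Neurod2*, *Dcx* and *Elavl4*), and also more genes in all, 384 of 28039 where it had called 5 of 17069. *Dcx*, *Stmn1*, *Dpysl5*, *Gap43* and *Elavl4*, which encode proteins of the cytoskeleton, growth cone and RNA of young neurons, were lower in the SP libraries (5.59% of all tested genes were lower at this p). *Nes*, *Hes1*, *Eomes*, *Neurod2* and *Bhlhe22*, a filament gene and 4 transcription factor genes, were higher (4.48% of all tested genes). Without replicate 1, the pair that holds SP 1, 3 members were lower and 1 was higher at this p, and without replicate 2 the numbers were 3 and 4. Without the replicate block *Dpysl5*, *Gap43*, *Hes1* and *Eomes* no longer had an unadjusted p under 0.05, while *Sox11* (lower) and *Crmp1* (higher) did. The shares of all tested genes at this p were counted only in the first edgeR fit, not in these refits. The median log2FC of the 33 members was -0.012, beside 0.0015 for all tested genes.

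**Figure D1:**
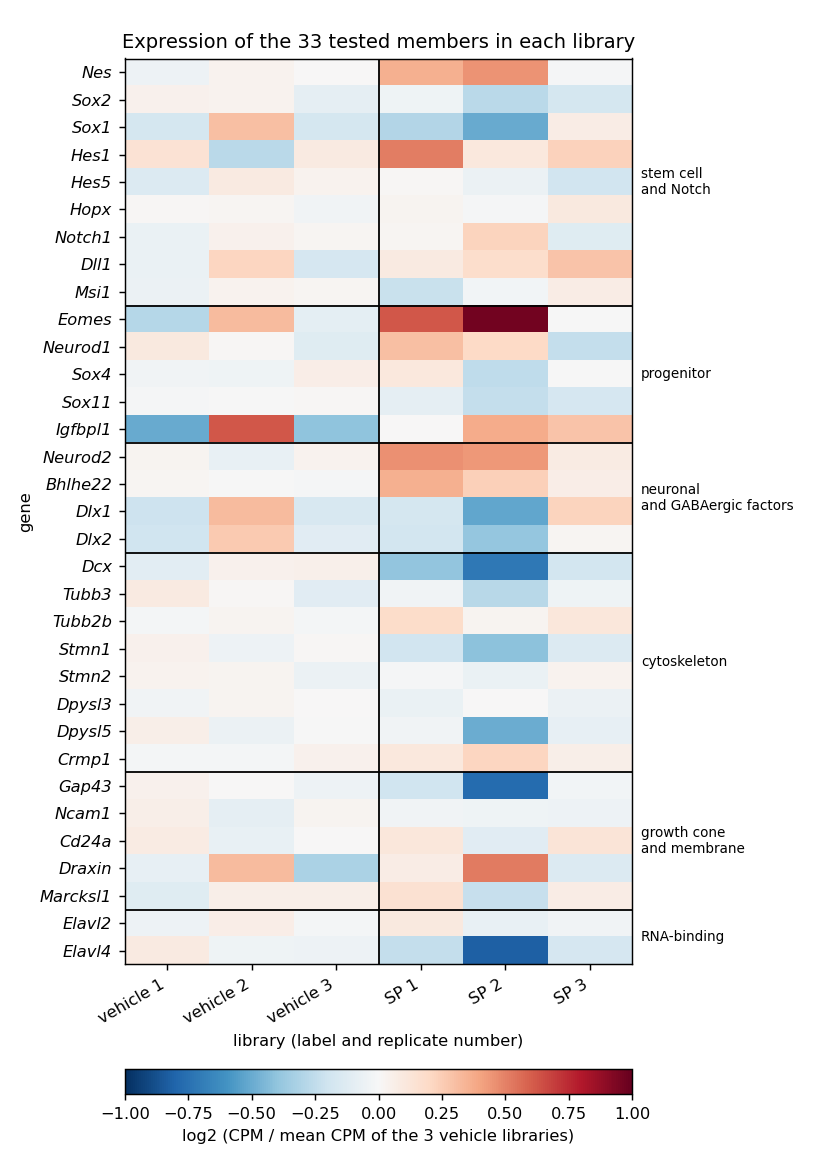
Each row is 1 of the 33 tested members, grouped by role, and each column is 1 library; the color gives the log2 ratio of its CPM to the mean of the 3 vehicle libraries. The SP 2 column holds the lowest value of 16 members, with *Elavl4*, *Gap43* and *Dcx* darkest, while *Neurod2*, *Bhlhe22* and *Nes* are above the vehicle mean in SP 1 and SP 2.

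The SP libraries often differed more among themselves than the vehicle libraries did. In 26 of 33 members (78.8%) the SD over the SP libraries was above that over the vehicle libraries, which was also the case for 62.7% of all tested genes. SP 2 was the lowest of the 6 libraries in 16 members (48.5%), against 21.7% of all tested genes, and the highest in 5 (15.2%, against 24.4%). SP 1 was the highest in 8 members (24.2%, against 16.8%) and the lowest in 2 (6.06%, against 18.9%), and SP 3 was the highest in 5 (15.2%, against 14.6%) and the lowest in 3 (9.09%, against 14.4%). Members lowest in SP 2 came from each role, from the stem cell genes *Sox1* and *Sox2* to *Stmn2* and *Elavl2*.

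The cytoskeletal members were led by *Dcx* (ENSMUSG00000031285, chromosome X of GRCm38 from 143855842 to 143933311, minus strand). It had 31.3, 34.8 and 35.0 CPM in vehicle 1, 2 and 3, and 25.6, 20.5 and 29.7 CPM in SP 1, 2 and 3. Each SP library was thus below each vehicle library, and SP 2 was lowest. The means were 33.7 ± 2.09 and 25.3 ± 4.62 CPM (SD, n = 3), and the log2FC was -0.43 (SE 0.107, FDR 0.347). It was -0.27 without replicate 2. With no filter on low counts, *Dcx* passed both thresholds (FDR 0.0226), and over all settings its FDR ran from 0.0226 to 0.712. These values rest on 494 to 966 counts per library.

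*Stmn1* (ENSMUSG00000028832, chromosome 4 from 134468320 to 134473843) encodes stathmin, which binds free tubulin and destabilizes microtubules. Its expression was 226, 211 and 221 CPM in the vehicle libraries and 192, 165 and 199 CPM in SP 1, 2 and 3. The groups did not overlap, and the log2FC was -0.25 (SE 0.0570, FDR 0.335). This was the lowest FDR of all members. Of the 31-base stretches in its exons, 22.4% are shared with another gene, most of them with *Gm11223*, which had only 8 to 20 counts per library. The sum of both genes was 166 to 199 CPM in the SP libraries and 212 to 227 CPM in the vehicle libraries.

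*Dpysl5* and *Crmp1* belong to the collapsin response mediator proteins, which link guidance signals to microtubules. *Dpysl5* (ENSMUSG00000029168, chromosome 5 from 30711564 to 30799375) had 38.0, 35.0 and 36.3 CPM in the vehicle libraries and 35.6, 25.8 and 34.4 CPM in SP 1, 2 and 3. SP 1 lay among the vehicle libraries, SP 3 just below them and SP 2 far below, and the log2FC of -0.20 (SE 0.0853, FDR 0.492) was -0.087 without replicate 2. *Crmp1* went the other way, with 197, 197 and 205 CPM against 215, 231 and 208 CPM, so that the groups did not overlap. Its log2FC was 0.13 (SE 0.0572, FDR 0.513), and 0.074 without replicate 2. The relative *Dpysl3* had 60.1 to 64.3 CPM over all 6 libraries, a log2FC of -0.039.

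The other cytoskeletal members overlapped between the groups. *Stmn2*, a stathmin of growing axons, had 297, 296 and 278 CPM in the vehicle libraries and 288, 277 and 298 CPM in the SP libraries, and its log2FC was -0.012 (SE 0.0564). *Tubb3*, the neuronal β-tubulin, ranged from 191 to 247 CPM and was lowest in SP 2, with a log2FC of -0.12 (SE 0.0724, FDR 0.624). *Tubb2b*, a β-tubulin of developing neurons, ranged from 171 to 196 CPM, a log2FC of 0.11 (SE 0.0562, FDR 0.566). Its value is uncertain, because 43.1% of the 31-base stretches in its exons are shared with another gene, 35.2% with *Tubb2a*. Summed with *Tubb2a* it was 776 to 849 CPM in the vehicle libraries and 829.9 to 872 CPM in the SP libraries, which overlap.

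Among the growth cone and membrane members, *Gap43* (ENSMUSG00000047261, chromosome 16 from 42248442 to 42340651, minus strand) encodes an abundant protein of extending axon tips. It had 146, 142 and 137 CPM in vehicle 1, 2 and 3, and 124, 83.2 and 139 CPM in SP 1, 2 and 3. SP 3 lay among the vehicle libraries and SP 2 far below them. The log2FC of -0.32 (SE 0.132, FDR 0.475) was -0.11 without replicate 2 and -0.51 without replicate 3. *Cd24a*, a surface glycoprotein of young neurons, had 16.5, 14.8 and 15.6 CPM against 16.9, 14.4 and 17.1 CPM, with overlapping groups and a log2FC of 0.043 (SE 0.0803). *Marcksl1*, which binds actin at the membrane, had 70.3, 79.6 and 79.7 CPM against 84.9, 65.1 and 80.5 CPM, a log2FC of -0.0004 (SE 0.0986) in which SP 1 was highest and SP 2 lowest of all libraries. The adhesion molecule *Ncam1* ranged from 211 to 234 CPM and the axon guidance gene *Draxin* from 0.907 to 1.62 CPM, with log2FCs of -0.045 and 0.18. For *Draxin* this rests on 23 to 39 counts per library.

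*Elavl2* and *Elavl4* encode neuronal Hu proteins, which bind and stabilize mRNA and are made by young and mature neurons. *Elavl4* (ENSMUSG00000028546, chromosome 4 from 110203722 to 110351909, minus strand) had 74.7, 68.0 and 67.7 CPM in the vehicle libraries and 59.4, 39.8 and 62.5 CPM in SP 1, 2 and 3. The groups did not overlap, and SP 2 lay far below the other libraries. The log2FC was -0.40 (SE 0.114, FDR 0.385), and -0.22 without replicate 2. *Elavl2* had 67.5, 73.2 and 68.8 CPM against 74.7, 66.5 and 68.2 CPM, a log2FC of -0.0023 (SE 0.0677).

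**Figure D2:**
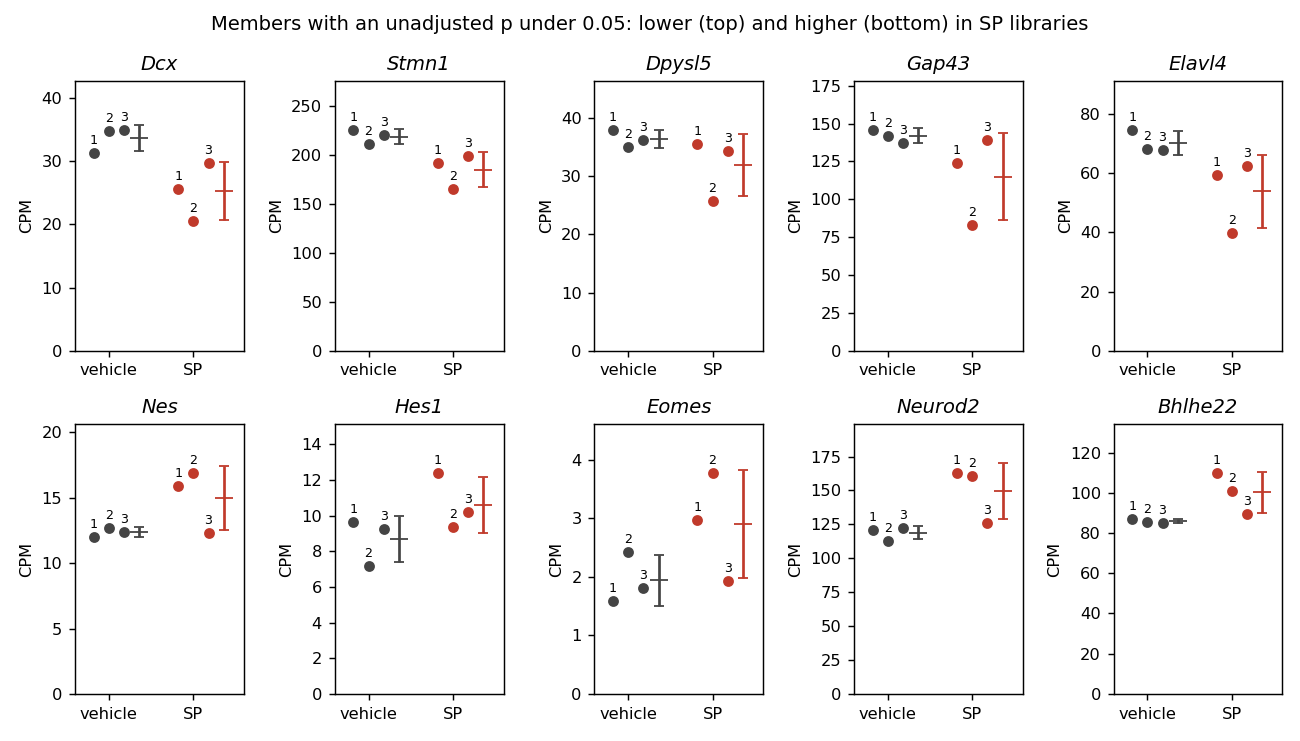
CPM (linear axis from 0) of the 10 members with an unadjusted p under 0.05, 1 point per library with its replicate number, and beside them the mean ± SD of 3 mice. In the top row SP 2 is the lowest point of each gene; in the bottom row SP 3 is the SP library nearest to the vehicle mean for 4 genes and SP 2 for *Hes1*.

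To set these genes beside their control regions, promoter sequences from RefSeq on GRCm38.p6 were searched on both strands for the Notch effector motif TGGGAA (RBPJ), the neurogenic E-box CAGATG and the SOX motif ACAAAG, in the 250 bases before the most upstream listed start. A promoter was listed for 22 of the 34 members, and not for *Hes1*, *Msi1*, *Tfap2c*, *Igfbpl1*, *Bhlhe22*, *Tubb2b*, *Stmn1*, *Stmn2*, *Dpysl3*, *Gap43*, *Ncam1* and *Cd24a*. The RBPJ motif was found in *Hes5*, *Sox4* and *Dpysl5*, 3 of these 22 (13.6%, against 21.5% of all 27025 promoters), the E-box in 1 (4.55%, against 14.5%) and the SOX motif in 7 (*Sox2*, *Hes5*, *Dll1*, *Dpysl5*, *Crmp1*, *Draxin* and *Elavl2*, 31.8%, against 16.5%). A match describes letters and is not a binding site. The sequences below belong to 3 members that were lower, to *Neurod2*, which holds the E-box, and to the Notch target *Hes5*, which holds the RBPJ motif at 2 places. They run 5′ to 3′ toward the start on the gene's strand, with matches in capitals, in either orientation, and none reaches into the GENCODE M21 gene. They are chrX:143933312-143933469 minus, chr4:110351912-110352161 minus, chr5:30711314-30711563 plus, chr11:98329649-98329895 minus and chr4:154960673-154960922 plus, in the order printed.
Dcx: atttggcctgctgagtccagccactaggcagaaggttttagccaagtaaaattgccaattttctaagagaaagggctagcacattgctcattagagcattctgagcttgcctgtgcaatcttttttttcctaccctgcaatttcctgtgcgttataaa
Elavl4: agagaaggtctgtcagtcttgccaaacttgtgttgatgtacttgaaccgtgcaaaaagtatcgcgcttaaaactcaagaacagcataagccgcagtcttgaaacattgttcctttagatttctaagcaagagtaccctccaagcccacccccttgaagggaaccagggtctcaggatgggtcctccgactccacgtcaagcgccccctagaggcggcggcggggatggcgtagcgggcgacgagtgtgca
Dpysl5: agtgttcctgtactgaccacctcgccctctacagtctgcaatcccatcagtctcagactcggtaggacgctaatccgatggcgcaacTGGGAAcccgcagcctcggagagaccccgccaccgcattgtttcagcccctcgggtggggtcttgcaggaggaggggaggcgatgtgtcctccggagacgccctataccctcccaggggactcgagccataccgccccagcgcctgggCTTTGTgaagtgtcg
Neurod2: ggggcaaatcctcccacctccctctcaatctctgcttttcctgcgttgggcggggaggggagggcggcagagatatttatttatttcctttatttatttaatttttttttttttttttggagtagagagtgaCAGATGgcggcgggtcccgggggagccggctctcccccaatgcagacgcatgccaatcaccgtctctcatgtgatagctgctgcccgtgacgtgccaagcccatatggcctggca
Hes5: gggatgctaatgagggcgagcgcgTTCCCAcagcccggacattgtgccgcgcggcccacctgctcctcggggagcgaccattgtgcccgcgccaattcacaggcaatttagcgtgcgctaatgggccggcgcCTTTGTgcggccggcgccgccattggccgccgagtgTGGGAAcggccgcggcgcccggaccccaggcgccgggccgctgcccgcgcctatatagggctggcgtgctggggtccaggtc

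The neuronal transcription factor genes *Neurod2* and *Bhlhe22* were higher in the SP libraries. Both encode basic helix-loop-helix factors of excitatory neurons that stay active in mature cells. *Neurod2* (ENSMUSG00000038255, chromosome 11 from 98325415 to 98329648, minus strand) had 121, 113 and 122 CPM in vehicle 1, 2 and 3, and 163, 161 and 126 CPM in SP 1, 2 and 3. SP 3 lay just above the vehicle libraries and the other SP libraries well above them, a log2FC of 0.32 (SE 0.0884, FDR 0.369). Without replicates 1 and 2 it was 0.27 and 0.23. Without replicate 3 it was 0.46 with an FDR of 0.0998, which passes the thresholds, and over all settings the FDR ran from 0.0359 to 0.831. *Bhlhe22* (ENSMUSG00000025128, chromosome 3 from 18054174 to 18057517) had 87.0, 85.5 and 84.9 CPM against 109.9, 101 and 89.6 CPM. The groups did not overlap, and the log2FC was 0.22 (SE 0.0637, FDR 0.389). Without replicate 1 it was 0.16, with an unadjusted p of 0.107 from edgeR.

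*Dlx1* and *Dlx2* encode homeodomain factors of GABAergic neurons and their precursors. *Dlx1* had 20.6, 29.6 and 21.3 CPM in the vehicle libraries and 21.1, 16.6 and 27.7 CPM in the SP libraries. The corresponding values of *Dlx2* were 4.64, 6.39 and 4.93 CPM and 4.69, 4.07 and 5.39 CPM. In both genes vehicle 2 was highest and SP 2 lowest, so that their log2FCs of -0.13 and -0.17 (SEs 0.201 and 0.178) became 0.21 and 0.072 without replicate 2. Of 13 genes of GABAergic interneurons, 1 was lower and 0 were higher at an unadjusted p under 0.05. Their summed level was 709.9, 800.0 and 740.3 CPM in vehicle 1, 2 and 3, and 739, 584 and 772 CPM in SP 1, 2 and 3. It was also highest in vehicle 2 and lowest in SP 2. Its part in the values of *Dlx1* and *Dlx2* was not tested.

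In the progenitor group, *Eomes* (ENSMUSG00000032446, chromosome 9 from 118478212 to 118486132) had the highest log2FC of all members, 0.55 (SE 0.213, FDR 0.458). It had 1.59, 2.42 and 1.81 CPM in the vehicle libraries and 2.98, 3.78 and 1.93 CPM in SP 1, 2 and 3, from 37 to 91 counts per library. SP 3 lay among the vehicle libraries. *Eomes* is also made by cerebellar unipolar brush cells and by Cajal-Retzius cells. On the list of Cajal-Retzius genes, *Lhx1* had 0.323 to 0.430 CPM in the vehicle libraries and 1.36, 0.872 and 0.359 CPM in SP 1, 2 and 3. It was thus highest in SP 1, as was *Pcp2* of the cerebellar neuron list. *Pcp2* had 2.39, 0.291 and 0.629 CPM in SP 1, 2 and 3, and 0 to 0.121 CPM in the vehicle libraries. Of the 7 tested Cajal-Retzius genes, 1 was higher (*Lhx1*) and 1 lower (*Reln*) at an unadjusted p under 0.05. The median log2FC of the 7 was -0.049. The log2FC of *Eomes* was 0.39 without replicate 1, which holds the library with cerebellar transcripts, and 0.50 without replicate 2. The part of other cell types in it was not tested.

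*Sox4* and *Sox11* encode SoxC factors, which switch on genes of neuronal differentiation. *Sox11* had 19.5, 19.6 and 19.9 CPM in the vehicle libraries and 18.5, 16.7 and 17.5 CPM in the SP libraries, which do not overlap. Its log2FC was -0.16 (SE 0.0764, FDR 0.522). *Sox4* had 24.2, 24.1 and 26.0 CPM against 26.7, 20.8 and 24.7 CPM, with overlapping groups and a log2FC of -0.049 (SE 0.0851). Its exons lie over another gene on the opposite strand for 2616 bases, and whether the counting used strand is not given in the sources used here. *Neurod1*, a factor of newborn granule cells and of cerebellar granule cells, ranged from 17.4 CPM in SP 3 to 25.3 CPM in SP 1, a log2FC of 0.095 (SE 0.0877). *Igfbpl1*, a marker of late progenitors, ranged from 1.76 to 3.84 CPM, a log2FC of 0.29 (SE 0.226) that was 0.61 without replicate 2 and 0.093 without replicate 3. *Tfap2c*, a factor of the earliest progenitor step, had 0, 11 and 7 counts in the vehicle libraries and 4, 9 and 0 counts in the SP libraries. A count of 0 allows up to 0.129 CPM in vehicle 1 and 0.135 CPM in SP 3, for counting error only.

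Among the stem cell genes, *Nes* (ENSMUSG00000004891, chromosome 3 from 87971078 to 87980451) encodes nestin, an intermediate filament of neural stem cells that is also made in blood vessels. It had 12.0, 12.7 and 12.4 CPM in the vehicle libraries and 15.9, 16.9 and 12.3 CPM in SP 1, 2 and 3. SP 3 again lay among the vehicle libraries. The log2FC of 0.27 (SE 0.109, FDR 0.475) was 0.40 without replicate 3, and 0.20 and 0.19 without replicates 1 and 2. *Hopx*, a marker of quiescent stem cells and of astrocytes, had 64.3, 64.5 and 62.3 CPM against 64.9, 63.1 and 68.0 CPM, a log2FC of 0.036 (SE 0.0584). *Sox1* had 16.2, 22.5 and 16.2 CPM against 14.9, 12.9 and 19.3 CPM, highest in vehicle 2 and lowest in SP 2 as for the *Dlx* genes. Its log2FC of -0.22 (SE 0.179) was 0.070 without replicate 2. *Sox2*, the pluripotency and stem cell factor, ranged from 33.0 CPM in SP 2 to 40.9 CPM in vehicle 1 with a log2FC of -0.16 (SE 0.0694, FDR 0.505), which was -0.085 without replicate 2. The RNA-binding stem cell protein gene *Msi1* ranged from 26.8 to 32.8 CPM, a log2FC of -0.054.

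The Notch members differed in sign. *Hes1* (ENSMUSG00000022528, chromosome 16 from 30064384 to 30067796) had 9.63, 7.19 and 9.25 CPM in vehicle 1, 2 and 3, and 12.4, 9.34 and 10.2 CPM in SP 1, 2 and 3. The groups overlap, with a log2FC of 0.29 (SE 0.10, FDR 0.429). It was higher in 3 of 3 pairs, as were 16.4% of all tested genes. *Hes5*, the other repressor, ranged from 6.51 to 7.92 CPM over all libraries, and its log2FC was -0.076 (SE 0.120). The receptor *Notch1* had 34.9, 37.6 and 36.9 CPM against 37.0, 42.5 and 33.5 CPM, a log2FC of 0.042 (SE 0.0764). The ligand *Dll1* ranged from 6.82 to 9.34 CPM, a log2FC of 0.19 (SE 0.123).

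**Figure D3:**
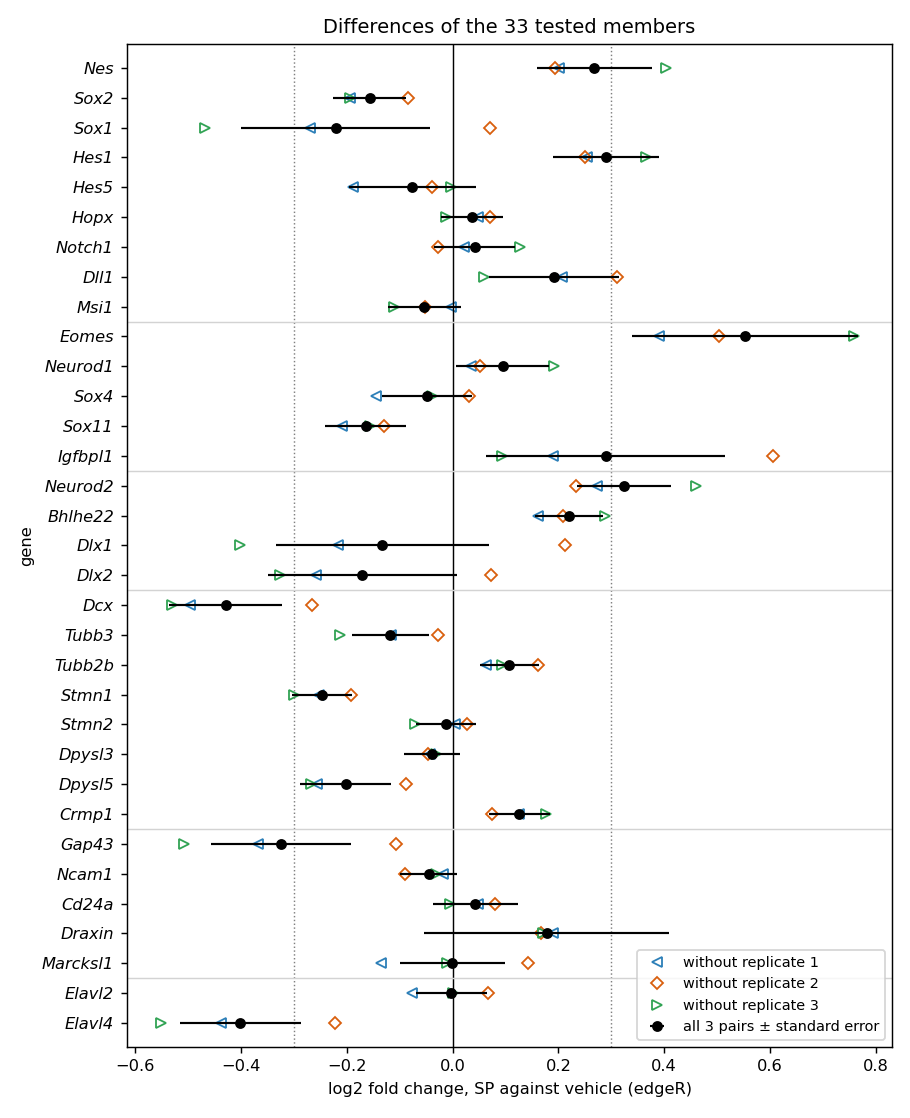
Black points give the log2FC of SP against vehicle with its SE for each tested member, and open marks the value without both mice of replicate 1, 2 or 3; dotted lines stand at ±0.3. The open diamonds for *Dcx*, *Elavl4* and *Gap43* lie nearer to 0, at -0.27, -0.22 and -0.11.

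Groups that do not overlap were found for 4 members lower in the SP libraries (*Sox11*, *Dcx*, *Stmn1* and *Elavl4*, 12.1%) and 3 higher (*Neurod2*, *Bhlhe22* and *Crmp1*, 9.09%). These shares are near those of all tested genes, 9.03% and 9.19%. By role, 3 of 8 cytoskeletal members, 1 of 5 growth cone and membrane members and 1 of 2 RNA-binding members were lower at an unadjusted p under 0.05, and 0 were higher. Of the 9 stem cell and Notch members 2 were higher, of the 5 tested progenitor members 1 and of the 4 neuronal and GABAergic factors 2, with 0 lower. Of all tested genes, 5.59% were lower and 4.48% higher at this p. The members were chosen with earlier results known, and whether the direction differs between roles was not tested.

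Levels of different genes can be compared only per length, here as CPM per kilobase of all annotated exons. In the vehicle libraries *Tubb3* was highest with a mean of 124 CPM per kb, followed by *Stmn1* with 114 and *Gap43* with 92.9 CPM per kb. *Dcx* stood at 2.67 CPM per kb, as its exons cover 12647 bases. The progenitor genes *Igfbpl1* and *Eomes* were at 0.768 and 0.468 CPM per kb, *Draxin* at 0.218 and *Tfap2c* at 0.0633 CPM per kb. Of the members with an unadjusted p under 0.05, the levels per length therefore range from that of *Eomes* to that of *Stmn1*.

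**Figure D4:**
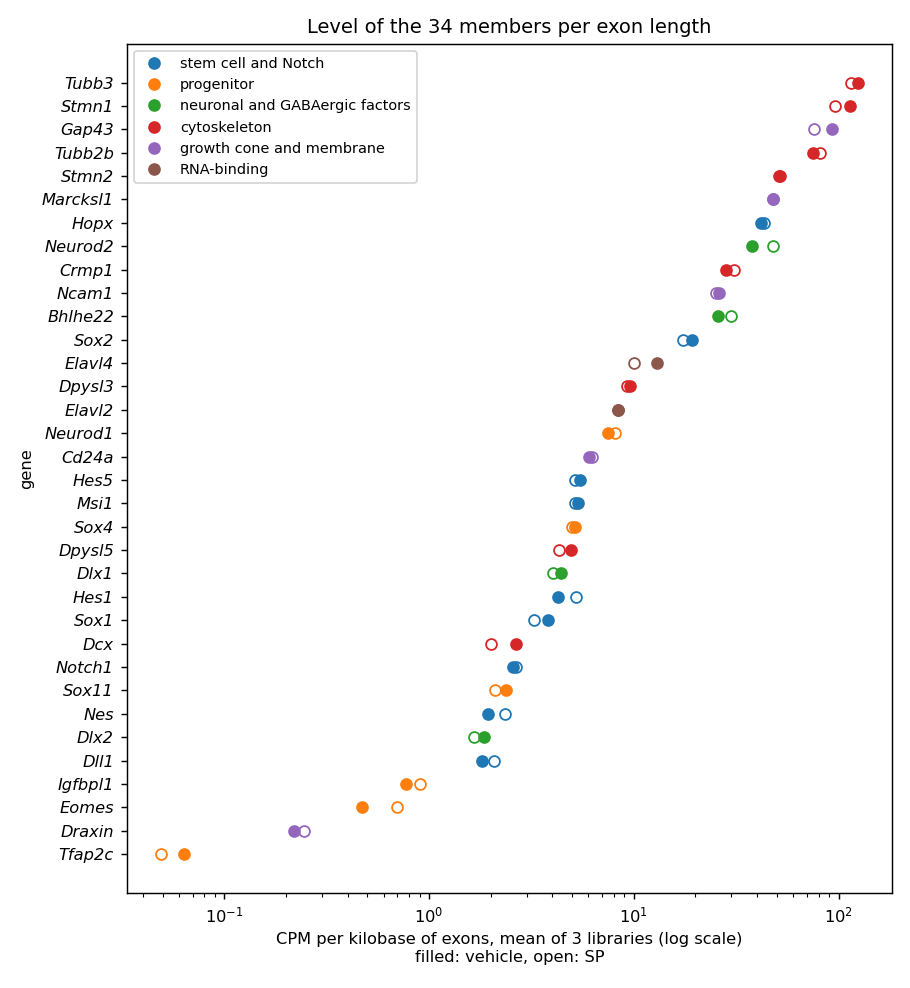
Mean level of each of the 34 members per kilobase of exons, on a log axis, for the vehicle (filled) and SP (open) libraries, colored by role. The cytoskeletal genes *Tubb3* and *Stmn1* stand at 124 and 114 CPM per kb in the vehicle libraries and the progenitor genes *Eomes* and *Tfap2c* at 0.468 and 0.0633 CPM per kb.

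Other genes of these pathways were read from the same fit. Of all tested genes in it, 5.59% were lower and 4.48% higher at an unadjusted p under 0.05. Of 24 other Notch pathway genes, 1 was lower and 2 were higher at an unadjusted p under 0.05, and their median log2FC was 0.022. The lowest were the ligand *Dll4* (-0.46) and the effector *Hey2* (-0.32), and the highest the Numb relative *Numbl* (0.17) and the Fringe gene *Rfng* (0.16). Of 30 other genes of neurogenesis 4 were lower and 2 higher, with a median of 0.026. *Nhlh1* had a log2FC of -0.32, on 0.539 CPM in SP 3 against 1.33 to 1.53 CPM elsewhere. The proneural *Neurog2* had a log2FC of 0.57 (SE 0.290). That of *Neurod4*, 1.74, rested on SP 2, which had 6.23 CPM where the other libraries had 0.283 to 0.559 CPM.

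Among 16 paralogs of the cytoskeletal, membrane and RNA-binding members, 4 were lower and 0 higher at an unadjusted p under 0.05, and the median was -0.028. Of the doublecortin-like kinases, *Dclk1* was 1 of the 4 that were lower, and *Dclk3* and *Dclk2* had the highest log2FCs of this list, 0.26 and 0.13. The adhesion gene *Ncam2* (-0.22) and the β-tubulin *Tubb6* (-0.41) had the lowest. *Tubb6* had at most 0.871 CPM in any library. Of 12 genes of proliferating cells, 11 were tested, 1 was lower and 0 were higher, and the median was 0.047. The division marker *Mki67* had 1.33 to 2.14 CPM in the vehicle libraries and 1.45 to 2.11 CPM in the SP libraries (log2FC 0.18, SE 0.219). Among the cell cycle genes *Mcm3* had the highest value (0.33), and *Ccna2* (-0.48) and *Mcm5* (-0.22) had the lowest. No gene of these 4 lists passed the FDR threshold.

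Mature cell types that also express members were followed with marker lists, in which *Tbr1*, *Fezf2*, *Calb1* and *Calb2* each belong to more than 1 list used here. Of 12 genes of neocortex and subiculum 5 were lower and 0 higher at an unadjusted p under 0.05 (all tested genes: 5.59% and 4.48%). Their summed level was 403, 390.1 and 392 CPM in vehicle 1, 2 and 3, and 359, 329 and 357 CPM in SP 1, 2 and 3. This sum was lowest in SP 2, as were *Dcx*, *Stmn1*, *Dpysl5*, *Gap43* and *Elavl4*, and the groups did not overlap. Not each gene of the list followed it, as *Rasgrf2* and *Cplx3* were highest of all libraries in SP 2, with 105 and 9.34 CPM. The 10 dentate granule cell genes summed to 477 to 487 CPM in the vehicle libraries and to 559, 598 and 450.0 CPM in SP 1, 2 and 3, with 2 genes higher and 0 lower. Their sum was high in SP 1 and SP 2 and not in SP 3, as were *Nes* and *Eomes*. In SP 2 *Lct* and *Dsp* had 72.8 and 68.6 CPM, against 36.9 to 39.0 and 39.1 to 41.0 CPM in the vehicle libraries. Not each gene followed the sum. *Calb1* had 116 CPM in SP 2 against 122 to 125 CPM in the vehicle libraries, and *Glis3* 19.3 CPM in SP 1 against 20.7 to 24.6 CPM. Of the 8 Cajal-Retzius genes, 7 were tested, 1 was lower (*Reln*) and 1 higher (*Lhx1*), and their sum was 211 to 220.4 CPM against 163 to 192 CPM. The largest part of this sum was *Reln*, with 84.7 to 103 CPM against 60.1 to 79.6 CPM. *Trp73*, also on this list, had 5.58 to 7.66 CPM against 5.37 to 7.39 CPM. The part of these cell types in the members' differences was not tested.

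The 10 astrocyte genes summed to 4885 to 5151 CPM in the vehicle libraries and 4799.6 to 5188 CPM in the SP libraries, with 1 gene higher. For 10 genes of mature neurons the sums were 9285 to 9583 and 9386 to 10630.4 CPM, highest in SP 2, with 1 gene higher. Much of this sum was *Camk2a*, with 4508 CPM in SP 2 and 3368 to 3827 CPM elsewhere. *Nefl*, *Nefm*, *Snap25* and *Syt1* were also highest in SP 2, and *Map2* was lowest there. Of 10 oligodendrocyte precursor genes 4 were higher, with sums of 317 to 348 and 346 to 384 CPM. The 10 endothelial genes, 1 of them lower, summed to 286 to 308 and 261 to 289 CPM. The 10 microglial genes, 0 of them called, summed to 336 to 350.0 and 327 to 347 CPM. Of 10 choroid plexus and ependymal genes 3 were lower and 2 higher, and their sum of 3809 to 4737 CPM in the vehicle libraries was 206 CPM in SP 1. Of 12 cerebellar neuron genes 9 were tested and 3 were higher. Their sum of 310.4 to 339 CPM against 367, 271 and 326 CPM was mostly *Calb1* and *Etv1*, which the hippocampus also makes. Of the defining cerebellar genes, *Gabra6* had 3.96 CPM in SP 1, at most 0.166 CPM elsewhere and 0 counts in vehicle 1 and SP 3.

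**Figure D5:**
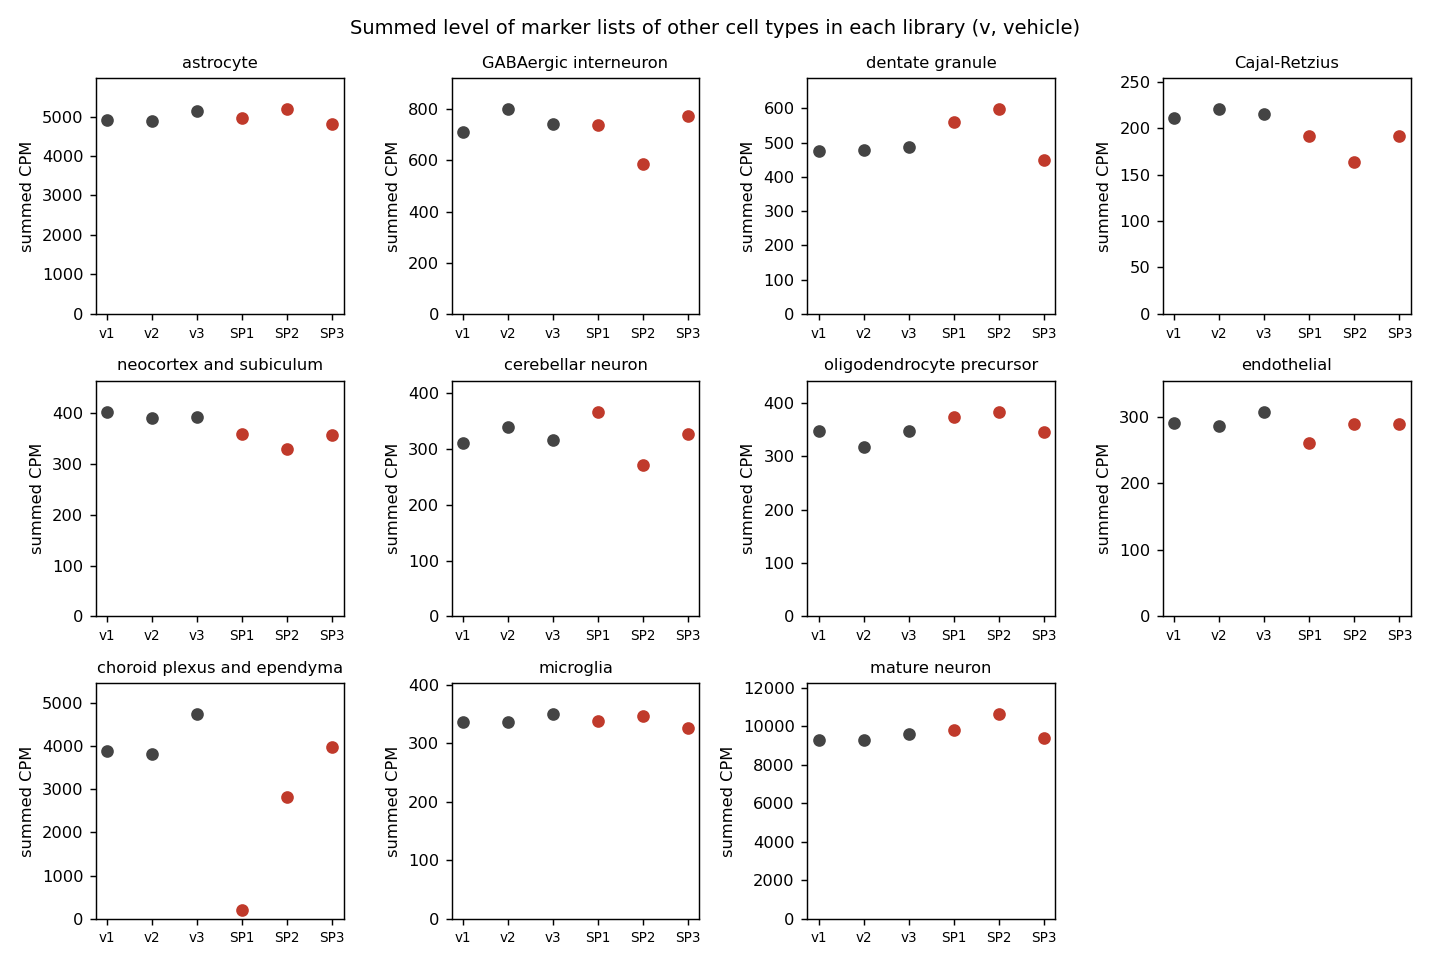
Summed CPM (linear axes from 0) of each marker list in each library, vehicle in gray and SP in red. The neocortex and subiculum list is at 329 to 359 CPM in the SP libraries and 390.1 to 403 CPM in the vehicle libraries, the dentate granule list is highest in SP 2 at 598 CPM, and the choroid plexus and ependyma list drops to 206 CPM in SP 1.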

How the data were processed

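RNA from the hippocampus of 6 mice was sequenced with a stranded mRNA kit. In the Nextflow RNAseq pipeline the authors used TrimGalore for trimming, STAR for alignment to GRCm38 and Salmon for quantification, and deposited estimated counts per gene, scaled neither for depth nor for length. Of the values 9.77% were not whole and were rounded.

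Counts were tested in R 4.3.3 with edgeR 4.0.16 (filterByExpr with minimum count 10, TMM, glmQLFit, glmQLFTest). The model had a block for the replicate number, since the study adjusted for replicates, and p-values were adjusted over 17069 genes by Benjamini-Hochberg. The number marks a batch in the labels. Deviations from the group means in mice of the same number had Pearson's r across genes of 0.014, -0.066 and 0.073. Alternatives used other normalizations and filters, limma 3.58.1 and DESeq2 1.42.0, no block, or left out both mice of a number. With the block, leaving out 1 mouse equals leaving out its pair. The fits were tested on simulated data. Each mouse is 1 replicate. With the block, p-values measure the spread, over the replicate numbers, of the differences between the SP and vehicle mice of a number.

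Positions, exon lengths and shared 31-base sequences came from GENCODE M21 (GRCm38), and promoters from RefSeq.

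The members and gene lists were chosen with earlier results of these data known. Library values are given for *Dcx*, for members with an unadjusted p under 0.05 or groups that do not overlap, and for those whose value changes sign or, when called at that p, moves by over 1.5 times without a replicate number. From each other pathway list the 2 lowest and 2 highest genes are named, except 1 that is not reported here. Genes named beside member results were chosen after their values were seen.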

Additional observations from a re-analysis of the deposited data

How the results depend on the processing

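The number of members past FDR < 0.1 and |log2FC| > 0.3 was 0 with no replicate block, relative log expression, upper quartile, limma-voom, a minimum of 10 counts in each library, DESeq2 with the block, FDR < 0.2 or no minimum fold change. Few genes were called in these fits at all. With no block 2 of 16707 were, with limma-voom 2 of 17069, and with relative log expression or upper quartile 5 of 17069. The minimum of 10 counts gave 0 of 15670 and DESeq2 with the block 38 of 28039. For FDR < 0.2 and no minimum fold change the genes in all were not counted. The number of members was 3 with no filter on low counts (*Neurod2*, *Dcx* and *Elavl4*), where 384 of all 28039 genes were called. With DESeq2 without the block it was 2 (*Neurod2* and *Dcx*), where 116 of 28039 genes were called. Without a replicate number it was 0 to 1, where 9 to 36 genes were called. Without the block in edgeR, 4 members were lower and 4 higher at an unadjusted p under 0.05, where 5 and 5 were with it: *Dpysl5*, *Gap43*, *Hes1* and *Eomes* lost that call, and *Sox11* and *Crmp1* gained it. DESeq2 gave 3 lower members with and without the block, and 2 and 3 higher members. Leaving out replicate numbers gave 3 to 7 lower and 1 to 6 higher, and without replicate 1 only 1 was higher. The shares of all tested genes at this p were not counted in these refits. Whether the members alone or all genes moved therefore cannot be told from these numbers. The median log2 fold change of the members went from -0.017 to 0.067 when a replicate number was left out, the latter without replicate 2, and was -0.032 with no filter on low counts and -0.027 in both DESeq2 fits. *Dcx* was lower in each fit, from -0.53 to -0.27 without a replicate number, and passed the thresholds with no filter (-0.43, FDR 0.0226) and with DESeq2 without the block (-0.42, FDR 0.0759). The cause was not tested.

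For 10 members the sign depended on the setting. Without a replicate number the log2 fold changes went from -0.47 to 0.070 for *Sox1*, -0.013 to 0.070 for *Hopx*, -0.028 to 0.13 for *Notch1*, -0.14 to 0.032 for *Sox4*, -0.40 to 0.21 for *Dlx1*, -0.33 to 0.072 for *Dlx2*, -0.072 to 0.027 for *Stmn2*, -0.0039 to 0.081 for *Cd24a*, -0.14 to 0.14 for *Marcksl1* and -0.077 to 0.067 for *Elavl2*. That of *Marcksl1* was 0.0051 without the block and 0.0043 with DESeq2 without it. At this depth *Eomes*, *Draxin*, *Igfbpl1* and *Tfap2c* had under 100 counts per library, so that differences in them are the least precise.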

Other observations

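Ependymal cells line the ventricles of the brain. Their gene *Ccdc153* had 5.46, 5.86 and 5.26 CPM in the vehicle libraries and 7.67, 7.84 and 8.98 CPM in SP 1, 2 and 3. The groups did not overlap, and the log2 fold change (log2FC) of SP against vehicle was 0.56 (SE 0.121, FDR 0.313 from edgeR). *Tmem212*, another gene of ciliated ependyma, had 1.89, 2.02 and 1.85 CPM against 2.68, 3.32 and 2.20 CPM, also without overlap. Its log2FC was 0.50 (FDR 0.457). Of all tested genes, 9.19% were higher in the SP libraries without overlap. *Foxj1*, the regulator of motile cilia, had 17.6 to 20.4 CPM against 18.1 to 21.8 CPM and overlapped. These genes were chosen after their values were seen, and the part of ventricular lining carried in by dissection was not tested.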
